A study of Mus musculus with 4 samples.

Results

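Droplet barcodes holding at least 1000 and under 2000 unique molecular identifiers (UMIs, 1 per captured RNA molecule) made up 1057 of the 13940 barcodes that passed the limits in 4 single-cell libraries of sorted brain myeloid cells. They were chosen from the raw count matrices by 3 measures: total UMIs, at least 500 genes detected, and at most 10% of UMIs from mitochondrially encoded genes (symbols starting mt-). They are called shallow here. The comparison was with deep barcodes, 11856 barcodes of at least 4000 UMIs under the same gene and mitochondrial limits. Each deep barcode was thinned at random to a depth drawn from the shallow barcodes of its own library.

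The libraries came from female APP/PS1 mice labelled 4 months old. APP/PS1 mice carry the amyloid transgenes of an Alzheimer's disease model, and both groups carried them. The 2 cKO libraries (APP/PS1:miR-155 cKO) were labelled as having the microRNA miR-155 deleted in microglia, and the 2 Control libraries were APP/PS1 alone. The labels give neither the Cre driver nor the deleted part of the locus. Cells were taken from the left hemisphere over a Percoll gradient, stained for CD11b and CD45, sorted, and made into 10x Genomics 3′ v3.1 libraries with a target of 5000 cells each. Where values are given for each library, replicate 1 of a group stands before its replicate 2.

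Messenger RNA is made in the nucleus and exported. Most of it is then translated by free ribosomes in the cytosol or by ribosomes on the endoplasmic reticulum (ER). Some long noncoding RNAs stay behind: Malat1 in nuclear speckles, Neat1 in paraspeckles, and Xist and Kcnq1ot1 on the chromatin they silence. Certain splicing-factor mRNAs also keep introns and are held in the nucleus. The balance of these groups in a droplet is used here as a description of its nuclear and cytoplasmic RNA. It gives shares of UMIs, not amounts. Poly-T primers capture both poly-A tails and internal runs of A. The mature 3′ end of Malat1 is cut by RNase P rather than polyadenylated, and an A-rich tract lies just before that cut. The longest A runs of Malat1 and Neat1, in capitals, are printed to show what a poly-T primer could bind in these nuclear transcripts. They were read from GENCODE M21 transcripts (build GRCm38, minus strand), at chr19:5795979-5796008 in the single exon of Malat1 and chr19:5835923-5835952 in the single exon of Neat1.
Malat1: cctagctttAAAAAAAAAAAAgcaaaagac
Neat1: agcctggactatAAAAAAAccttcatgagg
The Malat1 run lay within bases 6665 to 6694 of a 6983-base transcript. Malat1 held 5 runs of 6 or more A and Neat1 held 7. Kcnq1ot1, annotated antisense in the Kcnq1 gene, held 131 such runs over 93092 bases, the longest of 41 A. Whether the counted molecules began at these runs was not tested.

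The matrices held 33130800 to 47574406 UMIs per library and 2852 to 4351 passing barcodes. Of 1790 barcodes in the UMI window, 41 had under 500 genes and another 692 were over the mitochondrial limit. Shallow barcodes numbered 243 and 186 in the cKO libraries, with median depths of 1329 and 1423 UMIs, and 352 and 276 in the Control libraries, with median depths of 1271 and 1268 UMIs. Summed over a library they gave 267562 to 472446 UMIs, against 3272519 to 4915868 for the thinned deep barcodes. One barcode sequence was shared by shallow barcodes of different libraries, and 14 by barcodes of at least 1000 UMIs. No shallow barcode of any library held a UMI of Mir155hg, the host transcript of miR-155, so the deletion was not measured. Xist, which is transcribed from the inactive X chromosome of female cells, was at 5477 and 6384 CPM (UMI counts scaled to an equal total per library) in shallow barcodes of the cKO libraries. It was at 0 in the library labelled Control replicate 1, where 472446 UMIs allow up to 6.35 CPM (3 counts), and at 5022 CPM in Control replicate 2. The lack of Xist in the library labelled Control replicate 1 goes against its label of female. The Y-linked genes Ddx3y, Uty and Eif2s3y had no shallow UMI there and Kdm5d had 1. None of these Y-linked genes had a UMI in the 4915868 UMIs of its thinned deep barcodes. The values thus do not settle the sex of this library. Main counts are also given without it. The name deposited for cKO replicate 2 holds a different run code from those of the remaining libraries.

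The shallow barcodes carried the RNA of microglia, the resident macrophages of the brain. All 16 microglia markers had UMIs in the shallow barcodes of every library, and their summed level ranged from 14707 to 20147 CPM, against 30640 to 34430 CPM in deep barcodes. At 1000 UMIs per barcode, at least 3 of these markers were seen in 100% and 97.8% of shallow barcodes in cKO and 99.4% and 99.6% in Control. The same share was 99.6%, 99.8%, 99.4% and 99.7% of deep barcodes. The difference averaged -0.39 ± 1.06 points (SD, n = 4 libraries), smaller than the spread between libraries. Neuronal markers summed to between 0 and 8.47 CPM in shallow barcodes, against 1.37 to 3.87 CPM in deep barcodes, and erythroid markers to between 0 and 2.12 CPM, against 0 to 0.228 CPM. Summed levels were 990 to 1274 CPM for dendritic cell markers in shallow barcodes, against 1390 to 1647 CPM in deep barcodes, 254 to 389 CPM for neutrophil markers, against 214 to 411 CPM, 149 to 222 CPM for B cell markers, against 254 to 312 CPM, and 166 to 224 CPM for astrocyte markers, against 169 to 202 CPM. Choroid plexus markers reached 739 CPM in shallow barcodes of Control replicate 1, against 220 CPM in its deep barcodes, and were at 0 to 2.72 CPM in the shallow barcodes of the other libraries. T and NK cell markers reached 307 CPM in shallow barcodes of Control replicate 2, against 18.9 CPM in its deep barcodes, and were at 12.7 to 24.2 CPM in the shallow barcodes of the others. These sums can rest on few genes, and Siglech was in both the dendritic cell and the microglia lists. In shallow barcodes of cKO replicate 1, 4 of 8 dendritic cell markers and 1 of 10 neutrophil markers, Csf3r, had a UMI. In those of cKO replicate 2 with Malat1 at 6% or more of UMIs, Siglech alone gave the 854 CPM of dendritic cell markers. The part of these cell types in the results was not tested. Shallow barcodes with at least 3 markers of another cell type were 1 with choroid plexus markers in Control replicate 1 and 1 with T and NK cell markers in Control replicate 2.

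Malat1 set most shallow barcodes apart. Its share of the UMIs of a barcode had a median of 11.4% and 11.1% in shallow barcodes of the cKO libraries and 11.2% and 11.4% in those of the Control libraries. In deep barcodes the medians were 2.86%, 3.31%, 2.83% and 2.90% in the same order of libraries. The range in shallow barcodes was wide, from 0% to a highest value of 19.6% to 21.6% by library. Of the 1057 shallow barcodes, 825 lay above the 99th percentile of the deep barcodes of their own library, and that percentile was 6.06% to 6.53%. Malat1 and Gm26917 are the genes the class is labelled by, so their values are a description without a test.

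**Figure D1:**
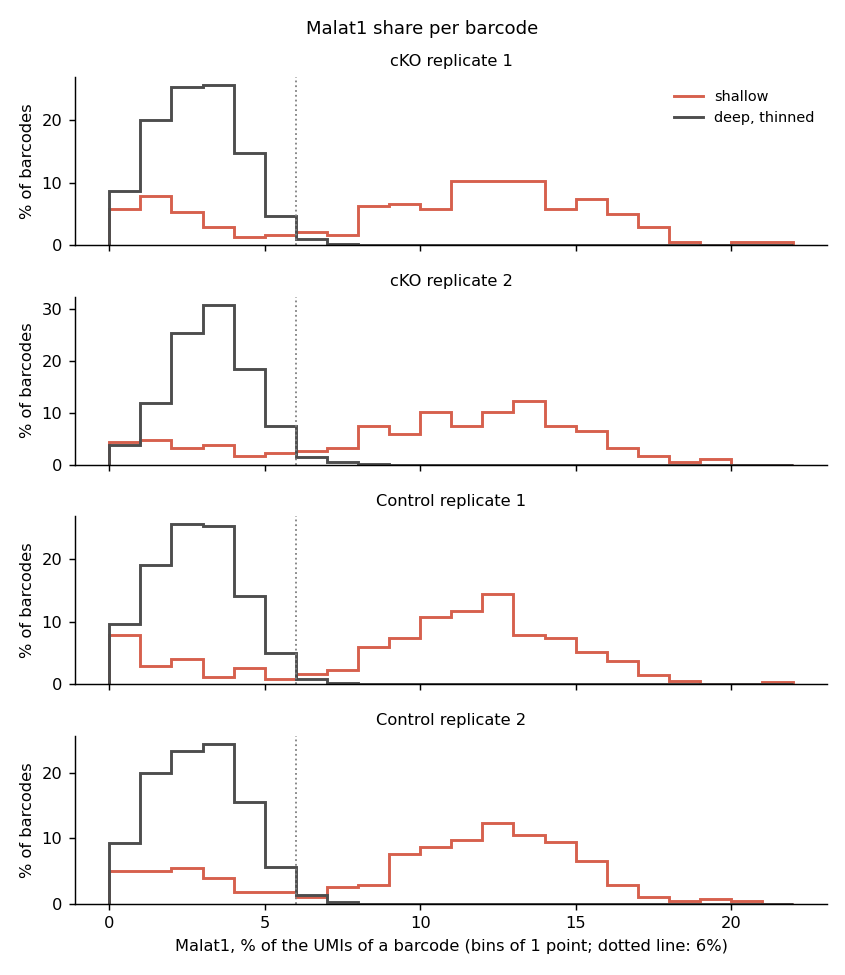
Share of Malat1 among the UMIs of a barcode (x axis, percent, bins of 1 point) against the percent of barcodes in each bin (y axis), for shallow barcodes and thinned deep barcodes in 4 libraries. Deep barcodes form 1 peak between 0 and 6%, while shallow barcodes form a broad peak between 8 and 18% and a smaller one under 6%.

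The distribution had 2 ranges in each library. A limit of 6% was drawn after it had been seen, and 35 shallow barcodes lay between 5 and 7%. It put 828 shallow barcodes at or above 6% and 229 under it. The upper range held 75.3% of shallow barcodes in cKO replicate 1, 80.1% in cKO replicate 2, 80.7% in Control replicate 1 and 76.8% in Control replicate 2. The 95% Wilson intervals ran from 69.5% to 85.2% over the 4 libraries and overlapped, and they cover counting error only. The ranges are cut from 1 gene and are not cell types.

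Together the shallow barcodes had 3.30 ± 0.17 times the share of nuclear long noncoding RNA of deep barcodes, 10.4% ± 0.40 of UMIs against 3.18% ± 0.28 (SD, n = 4 libraries). Most of this was Malat1 itself, with 9.80% ± 0.18 in shallow and 2.97% ± 0.22 in deep barcodes. The remaining nuclear noncoding RNAs took 0.772% and 0.940% of UMIs in shallow barcodes of the cKO libraries and 0.150% and 0.733% in those of the Control libraries, against 0.265%, 0.263%, 0.0606% and 0.252% in deep barcodes. They were higher in shallow barcodes within each library, and lowest in Control replicate 1, which lacks Xist. Cytosolic ribosomal protein mRNAs were 4.59% ± 0.87 of UMIs in shallow barcodes and 10.8% ± 0.84 in deep barcodes. Microglial mRNAs translated at the ER (secreted, lysosomal and membrane proteins) were 6.12% ± 1.03 in shallow barcodes and 12.9% ± 0.52 in deep barcodes. Actin and other cytosolic mRNAs were 1.82% ± 0.09 in shallow barcodes and 3.53% ± 0.09 in deep barcodes. In every library the shallow value of the nuclear group was above every deep value, and those of the other 3 groups were below every deep value. Fewer molecules of one group and more of another in a fixed number of UMIs cannot be told apart by shares alone.

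**Figure D2:**
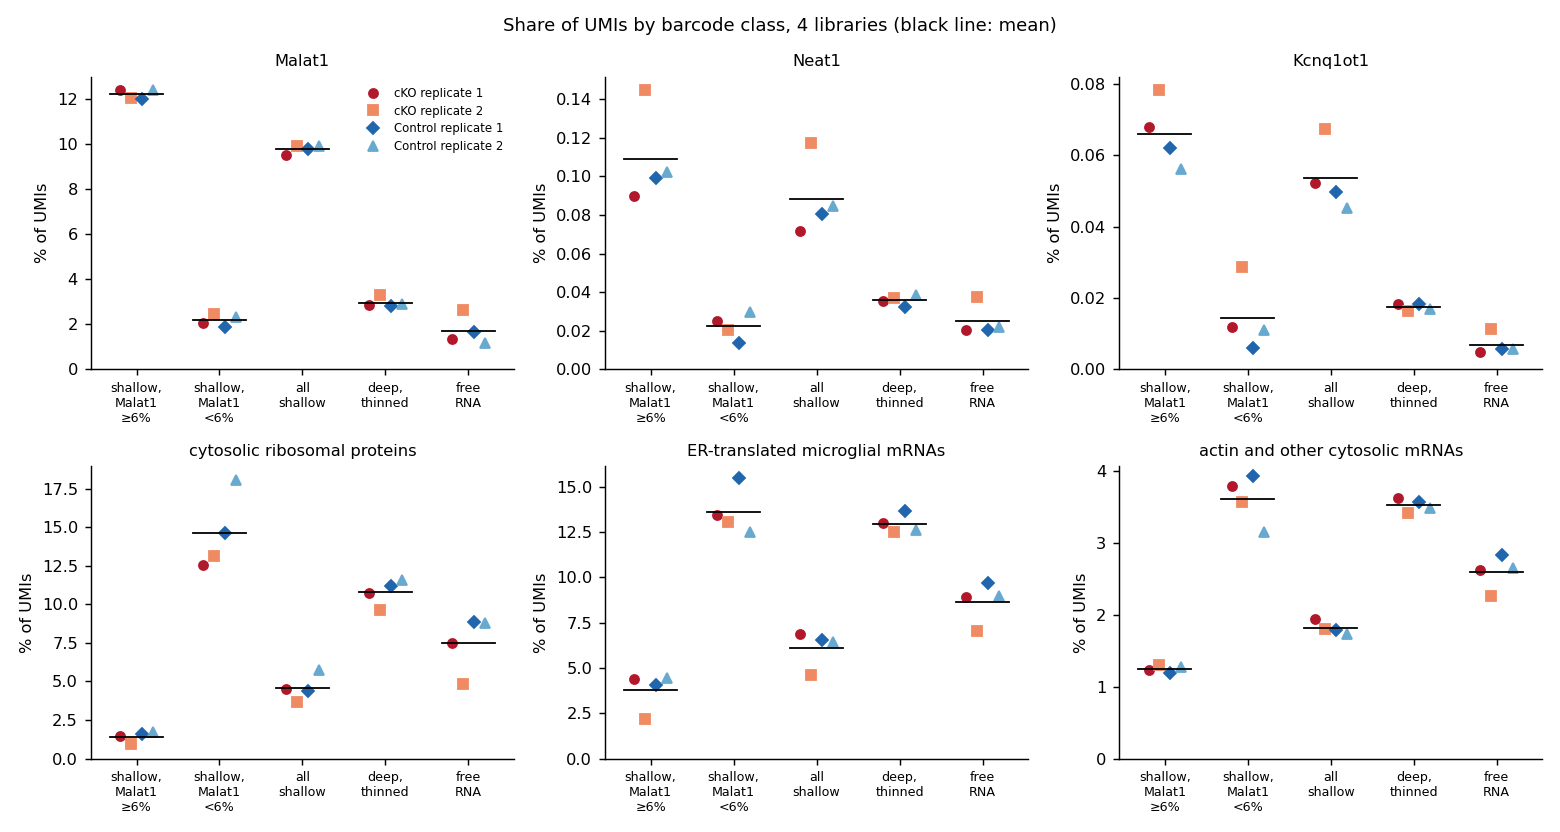
Percent of UMIs (y axis, from 0) for 3 nuclear noncoding RNAs and 3 groups of cytoplasmic mRNAs, in shallow barcodes split at a Malat1 share of 6%, all shallow barcodes, thinned deep barcodes and free RNA (barcodes of at most 100 UMIs). Points are the 4 libraries and the line is their mean; shallow barcodes with Malat1 at 6% or more are highest for all 3 noncoding RNAs and lowest for the 3 mRNA groups, with ribosomal protein mRNAs at 1.43% against 10.8% in deep barcodes.

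The 2 Malat1 ranges differed in most other groups of genes as well. Ribosomal protein mRNAs were 1.43% ± 0.33 of UMIs in shallow barcodes with Malat1 at 6% or more, 14.6% ± 2.47 in those under 6%, and 10.8% ± 0.84 in deep barcodes (SD, n = 4). ER-translated microglial mRNAs were 3.77% ± 1.06, 13.6% ± 1.28 and 12.9% ± 0.52 in these 3 classes. Neat1, with 1090 ± 245, 222 ± 68.8 and 360 ± 26.8 CPM, and Kcnq1ot1, with 661 ± 93.9, 144 ± 99.3 and 174 ± 9.81 CPM, went the other way. Shallow barcodes under 6% thus lay nearer to deep barcodes in these groups, and their ribosomal share in each library, 12.6% to 18.1%, was above every deep value. Mitochondrially encoded RNA, which the rule limited, was 6.02% ± 0.21 of UMIs at or above 6%, 2.41% ± 0.31 under 6% and 2.34% ± 0.33 in deep barcodes. Its part in the differences was not tested.

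Across single shallow barcodes the Malat1 share ran against the ribosomal share of the remaining UMIs, with Spearman's rho of -0.54 and -0.48 in the cKO libraries and -0.52 and -0.55 in the Control libraries. These are descriptions over 243, 186, 352 and 276 barcodes that share a library and differ in depth. With the mitochondrial share the rho of Malat1 was 0.45, 0.28, 0.30 and 0.40.

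RNA free in the suspension had another composition. Barcodes of at most 100 UMIs gave 33.5% ± 1.89 of UMIs to transcripts at the ribosomal RNA locus, of which shallow barcodes had 5.66% ± 0.75 and deep barcodes 5.85% ± 1.58. Their Malat1 share was 1.70% ± 0.65, below both classes, and their ribosomal protein share of 7.5% ± 1.88 lay between the shallow and deep means. The part of free RNA in the shallow barcodes was not tested further.

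The composition of UMIs summed over barcodes changed with depth. The window was split into 4 bins of equal width. Summed over the lowest bin, Malat1 took 11.3% and 11.6% of UMIs in the cKO libraries and 11% and 10.9% in the Control libraries. In the highest bin it took 4.55%, 7.79%, 6.31% and 8.90% in the same libraries, and at 2000 to 3000 UMIs 3.16%, 5.25%, 3.02% and 4.19%. The ribosomal share ran the other way, at 2.72%, 1.49%, 3.24% and 4.24% in the shallowest bin and 10.9%, 9.47%, 13.9% and 14.5% at 2000 to 3000 UMIs. Barcodes rich in Malat1 and poor in ribosomal protein mRNAs were thus concentrated in the lower part of the window, and the upper edge at 2000 UMIs fell where the composition was still changing. Just outside the lower edge, at 900 to 1000 UMIs, Malat1 took 11.1%, 11%, 12.3% and 10.7%. Just inside it, at 1000 to 1100 UMIs, it took 11.7%, 11%, 11.5% and 10.8%. At the upper edge, barcodes of 1900 to 2000 UMIs gave 3.94%, 5.75%, 7.43% and 6.71%, from 6 to 12 barcodes per library, and those of 2000 to 2100 UMIs gave 4.44%, 9.08%, 5.05% and 8.68%, from 6 to 14. Barcodes just inside the mitochondrial limit (8 to 10%) had 11.1% to 12.3% Malat1 by library and those just outside it (10 to 12%) had 10.7% to 11.9%. At 500 to 550 genes there were 2 to 7 barcodes per library, with Malat1 at 16.9%, 6.52%, 2.62% and 4.24% and ribosomal protein mRNAs at 1.45%, 18.8%, 19.3% and 27.9% of UMIs. At 450 to 500 genes there were 1 or 2, with Malat1 at 0%, 0%, 0.090% and 0.077% and ribosomal protein mRNAs at 28.1%, 18.1%, 29.6% and 36.5%, so the few barcodes just under the gene limit were poor in Malat1 and rich in ribosomal protein mRNAs. The upper end of each of these bins is not included.

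**Figure D3:**
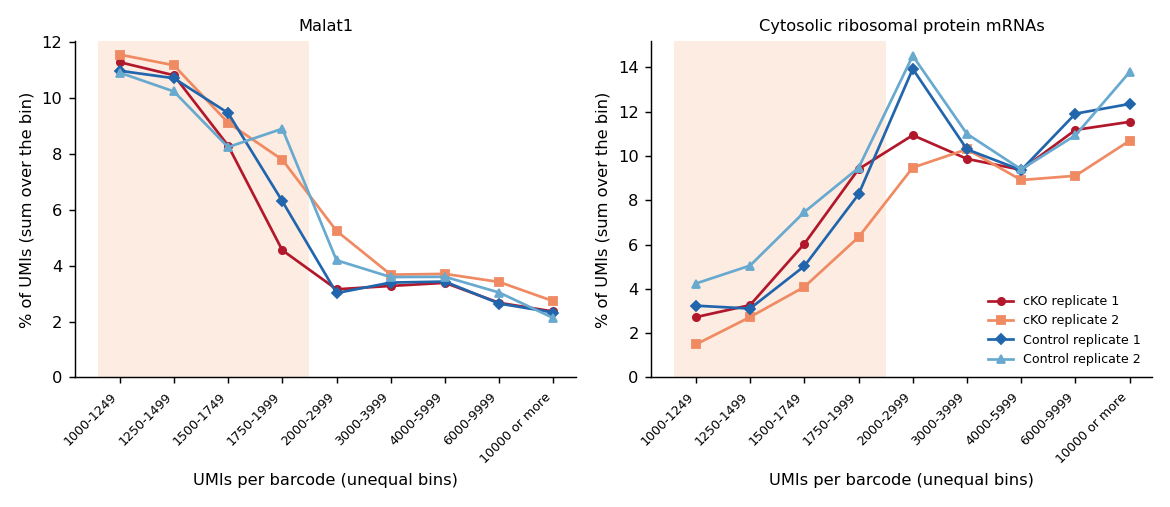
Share of UMIs (y axis, percent, from 0) of Malat1 and of ribosomal protein mRNAs in barcodes binned by their total UMIs (x axis, unequal bins), with 1 line per library. The shaded bins are the shallow window: Malat1 is at 10.2% to 11.6% in the 2 lowest bins and at 2.12% to 5.25% from 2000 UMIs on, while the ribosomal share is under 8% in the 3 lowest bins and from 8.91% to 14.5% above 2000 UMIs.

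Gene by gene, the sums per library were compared with edgeR's quasi-likelihood test, with the library as a block and Benjamini-Hochberg adjustment over 9778 tested genes. At an adjusted p under 0.05, 50.6% of genes were called. Of these, 2410 were higher in shallow barcodes (24.6% of genes tested) and 2539 lower (26%). The order was the same in 4 of 4 libraries for 5535 genes (56.6%). Without Control replicate 1, 1908 genes were higher and 2054 lower. With a mitochondrial limit of 5%, 867 of 9437 tested genes were higher and 1109 lower. In barcodes of 1500 to 2000 UMIs, 800 of 9578 were higher and 1068 lower. Counts of a gene group are to be read against those of all genes in the same setting.

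**Figure D4:**
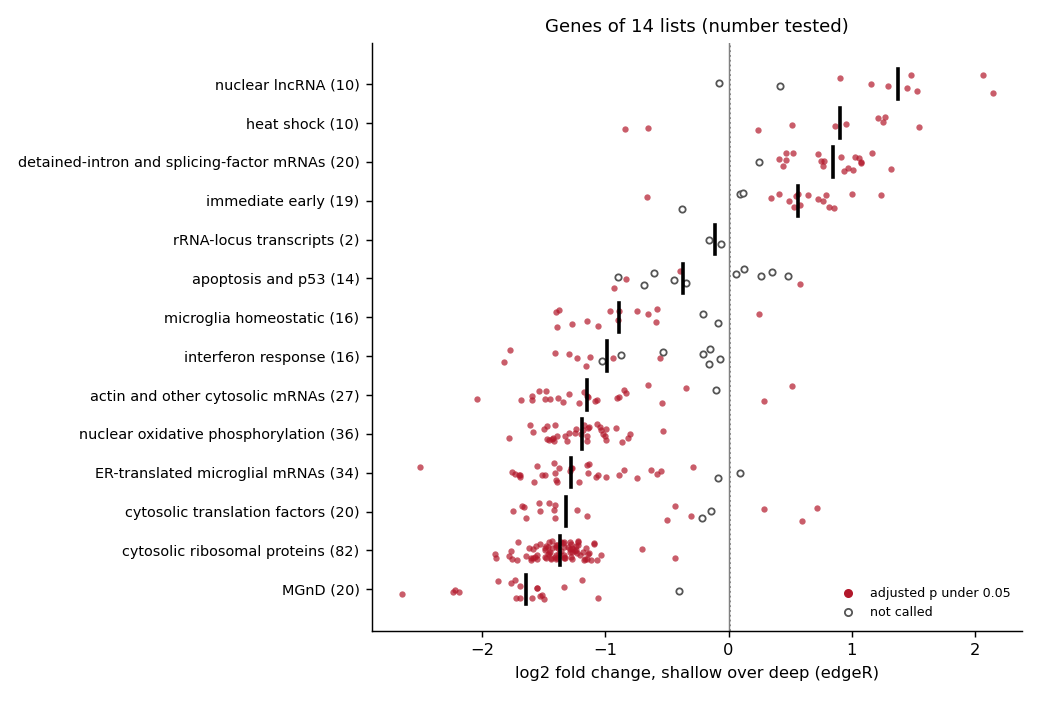
Log2 fold change of shallow over deep barcodes (x axis, edgeR) for each tested gene of 14 lists (rows, number tested in brackets, ordered by median), filled where the adjusted p is under 0.05. Thick bars are list medians and the dotted line is the median of all tested genes (0.01); nuclear noncoding RNAs, heat shock, splicing-factor and immediate early genes lie mostly right of 0, and the cytosolic, ER, respiratory chain and microglial state lists mostly left of it.

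Among the nuclear long noncoding RNAs, 8 of the 10 tested genes were called higher (24.6% of all genes) and none lower (26%). Their median log2 fold change was 1.37, against 0.01 over all tested genes. Of the 16 listed, Meg3, Miat, Rian, Snhg11 and Airn were too low to test, and Malat1 was left out of the testing. The number called higher was 5 of 10 both with a mitochondrial limit of 5% (867 of 9437 over all genes) and at 1500 to 2000 UMIs (800 of 9578). Neat1, the scaffold of paraspeckles, was at 685 and 1088 CPM in shallow barcodes of the cKO libraries and 779 and 833 CPM in those of the Control libraries, against 366, 364, 343 and 432 CPM in deep barcodes. All values per gene from here on are CPM scaled by TMM unless stated. No shallow value overlapped a deep one, and the log2 fold change was 1.16 (SE 0.09, edgeR adjusted p = 1.03e-20).

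Kcnq1ot1, which silences imprinted genes around Kcnq1, was at 500, 624, 480 and 445 CPM in shallow barcodes, against 188, 160, 193 and 187 CPM in deep barcodes of the same libraries. Its log2 fold change was 1.48 (SE 0.10, edgeR adjusted p = 6.11e-26). At 1000 UMIs per barcode, Kcnq1ot1 was seen in 32.1%, 32.8%, 27.8% and 28.3% of shallow barcodes and 14.7%, 13.7%, 15.2% and 14.8% of deep barcodes. The 95% Wilson intervals had a lowest bound of 23.3% for shallow shares and a highest bound of 16.4% for deep shares. They cover counting error within a library only, since barcodes are not replicates of a class. Neat1 was seen in 39.1%, 53.2%, 42.0% and 39.1% of shallow barcodes and 26.9%, 28.2%, 23.4% and 28.4% of deep barcodes. In free RNA Kcnq1ot1 had 0.0069% ± 0.0030 of UMIs, against 0.0536% ± 0.0096 in shallow and 0.0174% ± 0.0010 in deep barcodes.

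Xist rose in the 3 libraries that expressed it, with a log2 fold change of 1.53 (SE 0.11, edgeR adjusted p = 2.62e-24). Its levels were 5237 and 5917 CPM in shallow barcodes of the cKO libraries and 4951 CPM in those of Control replicate 2, against 1896, 1719 and 1903 CPM in deep barcodes. Tsix, the antisense partner of Xist, was at 772, 880 and 772 CPM in the same shallow barcodes, against 162, 218 and 171 CPM in the deep ones (log2 fold change 2.15, SE 0.11, edgeR adjusted p = 4.55e-35). The 2 genes overlap on opposite strands, and whether the counting used strand is not given in the sources used here, so their reads cannot be told apart. With the library left out of the fit neither was called. Firre, Ftx and Jpx, 3 further X-linked noncoding RNAs, rose by log2 fold changes of 1.45, 1.30 and 0.90, and Snhg14, of the imprinted Snrpn region, by 2.07 from means of 16.3 CPM in shallow and 3.86 CPM in deep barcodes. Ftx and Jpx were not called with a mitochondrial limit of 5% or a window of 1500 to 2000 UMIs, and neither was Firre. Pvt1 and Peg13 did not pass the test, at log2 fold changes of 0.42 and -0.08.

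The 3 transcripts annotated at the ribosomal RNA locus on chromosome 17 did not move together. Gm26917 (chr17:39843013-39846341, plus strand) was at 194, 617, 268 and 335 CPM in shallow barcodes and 63.5, 62.6, 62.2 and 63.6 CPM in deep barcodes, given without a test. Its level varied more between libraries in shallow barcodes, where cKO replicate 2 was highest, than in deep ones. Gm42418 (chr17:39846958-39848788, plus strand) had a log2 fold change of -0.16 (edgeR adjusted p = 0.236) and AY036118 (chr17:39847113-39848035, minus strand) one of -0.06 (edgeR adjusted p = 0.612). The sign of AY036118 turned without TMM scaling, to 0.06. These 2 overlap on opposite strands and their counts may be split between them.

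Splicing-factor mRNAs, several of them known to hold back introns in the nucleus, were called higher in 19 of 20 cases (24.6% of all genes), with a median log2 fold change of 0.84. Luc7l2, a component of the splicing machinery, was at 998, 1122, 1212 and 1117 CPM in shallow barcodes, against 499, 447, 493 and 547 CPM in deep barcodes. No values overlapped, and the log2 fold change was 1.16 (SE 0.09, edgeR adjusted p = 1.02e-21). Ogt, which encodes the O-GlcNAc transferase and has a detained intron, rose by 1.32, Tra2b by 1.08 and Son, a scaffold of nuclear speckles, by 1.07. Luc7l3 was the member not called, at 0.25.

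Cytosolic ribosomal protein mRNAs fell in 82 of 82 cases (26% of all genes were called lower), each with the same order in 4 of 4 libraries, and their log2 fold changes ran from -1.89 to -0.43 with a median of -1.37. Rpl17 was at 477, 333, 466 and 480 CPM in shallow barcodes, against 1606, 1302, 1740 and 1863 CPM in deep barcodes (log2 fold change -1.89, SE 0.10, edgeR adjusted p = 7.25e-33). The pooled shallow value averages over unlike barcodes: without TMM scaling Rpl17 was at 159 ± 62.5 CPM in those with Malat1 at 6% or more, 1400 ± 99.6 CPM in those under 6% and 1553 ± 157 CPM in deep barcodes (SD, n = 4). Rps3a1, Rps4x and Rpl21 had log2 fold changes of -1.89, -1.76 and -1.71. Ribosomal protein genes have many processed pseudogenes, and reads shared with them are uncertain. Without Control replicate 1, 81 of 82 were called lower. With a mitochondrial limit of 5% the median was -0.67 and 77 of 82 were called lower, and at 1500 to 2000 UMIs the median was -0.75 and 80 of 82 were.

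Translation factors fell in 15 of 20 cases (26% of all genes), with a median of -1.32, and 3 rose (24.6% of all genes). Eef1b2, Naca, Tpt1 and Eef1a1, which serve elongation and nascent chains, had log2 fold changes of -1.66, -1.46, -1.41 and -1.41. The 3 that rose, named for going against their list, were Eif5, Eif4a2 and Eif4a1, at 0.72, 0.60 and 0.29. Initiation factors were thus found on both sides, since Eif3f had one of -1.75.

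Actin and other cytosolic mRNAs fell in 24 of 27 tested cases (26% of all genes), with a median of -1.15. Tmsb4x, which encodes the actin-sequestering thymosin beta 4, was at 4884, 3437, 4553 and 3856 CPM in shallow barcodes, against 13395, 12096, 13852 and 14042 CPM in deep barcodes. Its log2 fold change was -1.68 (SE 0.10, edgeR adjusted p = 2.01e-29), and no values overlapped. Gapdh, of glycolysis, Pfn1, an actin-binding profilin, and Cd52, a surface peptide of leukocytes, had log2 fold changes of -1.59, -1.59 and -1.49. 2 genes of the list rose, among them the cytosolic chaperone Hspa8 (0.51). At 1500 to 2000 UMIs no gene of the list rose and the median was -0.73, and with a mitochondrial limit of 5% none rose and it was -0.80.

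ER-translated microglial mRNAs fell in 32 of 34 cases (26% of all genes) and none rose, with a median of -1.28. B2m, the light chain of MHC class I, was at 937, 631, 750 and 764 CPM in shallow barcodes, against 2630, 2756, 2454 and 2573 CPM in deep barcodes (log2 fold change -1.76, SE 0.10, edgeR adjusted p = 6.13e-31). Itm2b, Tyrobp, an adaptor of Trem2, and Ctss, a lysosomal cathepsin, had log2 fold changes of -1.70, -1.58 and -1.49. The 2 members not called were Csf1r (-0.08) and Itgb5 (0.09). Nuclear-encoded subunits of the respiratory chain and ATP synthase fell in 36 of 36 cases (26% of all genes), with a median of -1.19. Among them were Uqcrh of complex III (-1.78) and Cox6b1 and Cox4i1 of complex IV (-1.47 and -1.31). The direction differed between the Malat1 ranges. These mRNAs took 0.116% ± 0.017 of UMIs at 6% or more, 1.08% ± 0.19 under 6% and 0.721% ± 0.032 in deep barcodes. Their median log2 ratio to deep barcodes was -2.63 at 6% or more and 0.54 under 6%. With a mitochondrial limit of 5% the number called lower was 20 of 36 (1109 of 9437 over all genes), and at 1500 to 2000 UMIs 22 of 36 (1068 of 9578). Mitochondrially encoded subunits of the same complexes were 5.15% ± 0.20 of UMIs in shallow barcodes and 2.34% ± 0.33 in deep barcodes (SD, n = 4), a measure the rule limited.

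Microglial state genes fell with the cytoplasmic mRNAs. Of 16 homeostatic genes 13 fell (26% of all genes), with a median log2 fold change of -0.89. Tgfbr1, a receptor of TGF-beta, was called higher at 0.25, but not under every setting. No homeostatic gene was called higher without cKO replicate 1, Control replicate 1 or Control replicate 2, or at 1500 to 2000 UMIs. The same held with a mitochondrial limit of 5%, with no filter on low counts, unthinned, or with the library left out of the fit. P2ry12, the ADP receptor of resting microglia, was at 1096, 797, 926 and 1018 CPM in shallow barcodes, against 2437, 2628, 2665 and 2339 CPM in deep barcodes, with a log2 fold change of -1.39, and that of Tmem119 was -0.58. Of 20 tested genes of the MGnD state, the neurodegenerative microglial phenotype that Trem2 and Apoe drive, 19 fell (26% of all genes). Their median was -1.65, and Csf1 was not called. Against deep barcodes of 4000 to 10000 UMIs the median was -1.07 with 13 of 19 called lower (2366 of 9055 over all genes). Against those of 2000 to 4000 UMIs it was -1.01 with 10 of 14 (1519 of 5215 over all genes). Cst7, a cystatin induced in that state, was at 159, 62.4, 119 and 69.7 CPM in shallow barcodes and 469, 242, 649 and 543 CPM in deep barcodes, and Clec7a, a lectin receptor, at 49.2, 13.9, 65.4 and 42.9 CPM against 211, 106, 248 and 251 CPM. Of 16 interferon response genes 9 fell (26% of all genes) and none rose, with a median of -0.98. Among those that fell were Ifitm3, Rtp4 and Bst2 (-1.78, -1.41 and -1.30). At 1500 to 2000 UMIs 12 of 20 MGnD and 5 of 16 interferon response genes were called lower (1068 of 9578 over all genes). With a mitochondrial limit of 5% these were 13 of 20 and 4 of 16 (1109 of 9437 over all genes). The lists share members: most of these state genes encode secreted or membrane proteins translated at the ER.

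Stress and early response genes lay on the other side. Of 10 heat shock genes 8 rose, with a median of 0.91. Hspa1a, an inducible HSP70 gene, was at 495, 863, 347 and 268 CPM in shallow barcodes, against 225, 417, 135 and 102 CPM in deep barcodes (log2 fold change 1.22, SE 0.10, edgeR adjusted p = 1.03e-20). The values of the 2 classes overlapped between libraries, since cKO replicate 2 was the highest in both, but shallow was above deep in each library. With the library left out of the fit Hspa1a, Hspa1b and Dnajb1 were not called, and 2 of the 10 heat shock genes were called higher (2335 of 9778 over all genes). Hsp90aa1 rose by 0.95, and the 2 genes that fell were Hspe1 and Hspd1, chaperones of the mitochondrial matrix, at -0.84 and -0.66.

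Of 19 immediate early genes, transcription factors and regulators induced within minutes of a stimulus, 15 rose (24.6% of all genes) and 1 fell (26%). Their median log2 fold change was 0.56. Klf4 was at 622, 717, 795 and 284 CPM in shallow barcodes, against 237, 334, 315 and 136 CPM in deep barcodes (log2 fold change 1.24, SE 0.10, edgeR adjusted p = 2.62e-22). Fosb rose by 1.00, Klf2 by 0.81 and Ier2 by 0.79, and Ier3 was the gene that fell, at -0.66. With a mitochondrial limit of 5% the number that rose was 5 of 19, against 867 of 9437 over all genes. The direction differed between the Malat1 ranges. Immediate early genes took 3.51% ± 0.30 of UMIs in shallow barcodes with Malat1 at 6% or more. They took 1.25% ± 0.23 in those under 6% and 1.84% ± 0.29 in deep barcodes (SD, n = 4). Their median log2 ratio to deep barcodes was 0.92 at 6% or more and -0.53 under 6%. Other lists also changed sign between these ranges, among them nuclear noncoding RNAs (1.94 and -0.36) and ribosomal protein mRNAs (-2.96 and 0.44). Of 14 tested genes of apoptosis and the p53 response, 1 rose (24.6% of all genes), 3 fell (26% of all genes) and 10 were not called. Mdm2, the p53 inhibitor, rose by 0.58, and Bax and Casp8 fell, at -0.93 and -0.39, Casp8 not being called without Control replicate 2 (-0.32).

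Outside the lists, the protein-coding genes with the largest rises at an average log2 CPM of at least 5 included Phykpl, an enzyme of hydroxylysine breakdown, Ttpal, Stard9, a mitotic kinesin, Safb2, a nuclear scaffold protein, and Snx29, a sorting nexin. Phykpl was at 127, 111, 112 and 131 CPM in shallow barcodes, against 28.0, 42.1, 29.2 and 39.4 CPM in deep barcodes (log2 fold change 1.82, SE 0.16, edgeR adjusted p = 3.08e-19). Stard9, Safb2, Snx29 and Mlxipl, a glucose-responsive transcription factor, rose by 1.78, 1.62, 1.59 and 1.58, and Zbtb37, Zfp407, the kinase gene Tyk2 and Dop1a by 1.54, 1.54, 1.49 and 1.48. In shallow barcodes with Malat1 at 6% or more Phykpl reached 157 ± 18.3 CPM without TMM scaling, against 28.9 ± 21.6 CPM under 6% and 33.3 ± 7.47 CPM in deep barcodes.

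Among genes with an average log2 CPM of at least 5, H2-Eb1 and H2-Ab1, MHC class II genes whose products present peptides to T cells, had the most negative fold changes. H2-Ab1 was at 11.6, 17.3, 8.17 and 5.36 CPM in shallow barcodes, against 73.4, 71.5, 59.0 and 84.7 CPM in deep barcodes (log2 fold change -2.82, SE 0.28, edgeR adjusted p = 5.45e-16). Cd74, the invariant chain of MHC class II, and H2-Eb1 had log2 fold changes of -2.51 and -3.42, and H2-Eb1 had no shallow UMI in cKO replicate 2 and Control replicate 1, so its fitted value rests on few counts. Cox6a2, of complex IV, Stmn1, which binds tubulin, Ran, the GTPase of nuclear transport, Atp5c1, of ATP synthase, and Lyz2, a lysozyme, had log2 fold changes of -2.55, -2.29, -2.14, -2.13 and -2.08. Those of Sptssa and Trappc1 were -2.27 and -2.09, and Cox6a2 was not called with the library left out of the fit.

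Longer genes were higher in shallow barcodes and shorter ones lower. Of the 9778 tested genes 9777 were matched to GENCODE M21. The median log2 fold change was -1.04 over the 479 genes whose longest annotated transcript was under 1 kb, -0.75 over 1596 genes of 1 to 2 kb, -0.10 over 3944 genes of 2 to 4 kb, 0.35 over 3204 genes of 4 to 8 kb and 0.68 over 551 genes of 8 kb or more. In the shortest bin 68.7% of genes were called lower and 9.19% higher, and in the longest bin 2.54% lower and 64.8% higher. By gene span, introns included, the medians ran from -0.58 under 5 kb to 0.48 at 100 kb or more. Within transcripts of at least 4 kb the median still went from 0.22 at spans under 20 kb to 0.56 at 100 kb or more, and within those of 1 to 2 kb from -0.77 to -0.33. Across genes, which are not independent, Spearman's rho with the log2 fold change was 0.49 for transcript length, 0.34 for span and -0.21 for the mean level.

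**Figure D5:**
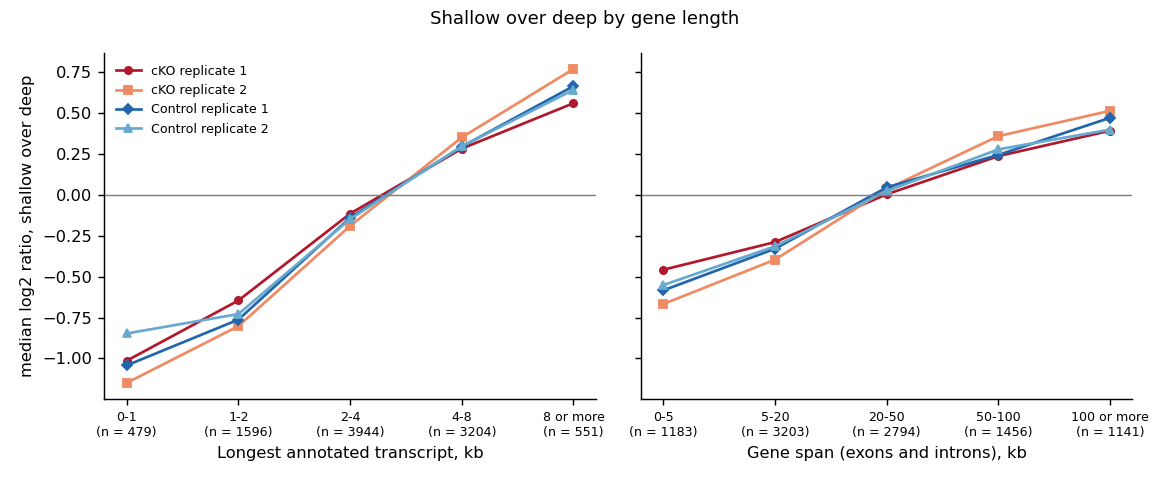
Median log2 ratio of shallow over deep barcodes (y axis, from CPM with 1 CPM added) for genes binned by the length of their longest annotated transcript and by gene span (x axes, kilobases, unequal bins, number of genes in brackets), with 1 line per library. In all 4 libraries the medians are lowest for the shortest genes and highest for the longest.

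Annotated transcript classes also differed. Of 47 genes annotated as sense intronic, noncoding transcripts inside introns of other genes, 39 were called higher (24.6% of all genes) and none lower (26%). Their median log2 fold change was 1.44. The medians were 0.77 for 162 antisense transcripts and 0.64 for 147 long intergenic noncoding RNAs, against -0.02 for 9274 protein-coding genes. Whether reads in introns were counted is not given in the sources used here, so reads of unspliced host genes and of sense intronic transcripts cannot be told apart.

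Shallow barcodes were compared between genotypes last. They were 6.43% ± 0.12 of passing barcodes in cKO libraries and 8.79% ± 0.99 in Control libraries (SD, n = 2 each), a difference of -2.35 points (exact two-sided permutation test, p = 0.33, the smallest p that 2 against 2 libraries allow). By library the shares were 6.35% and 6.52% in cKO and 8.09% and 9.49% in Control, so the groups did not overlap. With a mitochondrial limit of 5% the difference was -0.88 points. Malat1 took 9.73% ± 0.27 of shallow UMIs in cKO and 9.86% ± 0.09 in Control, and the range at 6% or more held 77.7% ± 3.39 of shallow barcodes in cKO and 78.7% ± 2.74 in Control. These differed by less than the spread between libraries.

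No gene was called between cKO and Control in shallow barcodes (0 of 5403 tested, 0% by edgeR's quasi-likelihood test, with 190 genes at an unadjusted p under 0.05 and 1 called by DESeq2). Hspa1b had the smallest p, at 461 and 901 CPM in cKO and 210 and 245 CPM in Control (log2 fold change 1.58, SE 0.30, edgeR adjusted p = 0.153). Cx3cr1, the fractalkine receptor of microglia, was at 1618 and 1141 CPM in cKO and 2549 and 2574 CPM in Control (log2 fold change -0.89, edgeR adjusted p = 0.999), and Cdkn1a, which encodes the cell cycle inhibitor p21, at 63.7 and 54.5 CPM in cKO and 17.0 and 16.7 CPM in Control (1.80, edgeR adjusted p = 0.738). Hist1h2ac, a histone gene, was at 63.7 and 32.7 CPM in cKO and 123 and 181 CPM in Control (-1.60, edgeR adjusted p = 0.306). None of these 4 passed the test, and they were picked from the genes of smallest p among the 5403 tested. The count changed with the libraries used: 28 genes were called when cKO replicate 1 was left out and none when cKO replicate 2 was, while leaving out Control replicate 1 gave 4 and leaving out Control replicate 2 gave 3. Each of these fits leaves 1 library alone in its group, which is assumed to vary like the 2 libraries of the other group.

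The shallow minus deep difference was not called different between the genotypes for any gene (0 of 10636 tested, 0% by edgeR's quasi-likelihood test of the interaction, with 398 genes at an unadjusted p under 0.05 and 0 called by DESeq2). The smallest p was that of Ndufa1, a subunit of complex I (difference of log2 fold changes -1.42, SE 0.41, edgeR adjusted p = 1). Among positive differences it was that of Renbp, at 51.1 and 82.8 CPM in shallow barcodes of the cKO libraries and 28.3 and 26.3 CPM in those of the Control libraries, against 66.4, 54.4, 63.6 and 66.6 CPM in the deep barcodes of these libraries (difference 1.36, SE 0.41, edgeR adjusted p = 1). Mvb12b (-1.07) and Cst7 (0.96) did not pass either.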

How the data were processed

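The authors deposited raw matrices of whole-number UMI counts per gene and barcode, unfiltered and over 32372 gene features. The submitters' processing notes name Cell Ranger 4.0.0 and the build mm10. The deposited barcode and feature files are other text, which only names rows and columns. Depth per library was 33130800 to 47574406 UMIs.

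Counts were read with Python 3.11.15, numpy 2.4.6, scipy 1.17.1 and pandas 2.3.3. Barcodes were classed by UMIs, genes and mitochondrial share as the report states. Deep barcodes were thinned without replacement (seed 20240), and every barcode to 1000 UMIs for shares of barcodes with a gene. No doublet caller was run. Cells are not replicates, so counts were summed per library and class. Sums were tested with edgeR 4.0.16 in R 4.3.3 (TMM, filterByExpr, quasi-likelihood F test, two-sided, adjusted p 0.05), with library as a block between classes and no block between genotypes. DESeq2 1.42.0 was an alternative. SE is that of the log2 fold change. The labels call the libraries biological replicates. Log2 ratios by Malat1 range and by library added 5 and 1 CPM. Figures used matplotlib 3.10.9. Gene names, lengths and classes came from GENCODE M21 (32321 of 32372 identifiers matched).

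Named genes were the 12 largest changes per direction among genes called with 1 order in 4 of 4 libraries whose average log2 CPM reached 5 (predicted, ribosomal and mt- genes not put forward), all tested nuclear noncoding RNAs, from each list at most 4 genes of smallest p, and for genotype the 5 smallest p per direction. Members that go against their list were named after their values were seen. Some list members are not reported here by name. The class, the gene lists and the tests were chosen with earlier results of these data known. The edgeR steps were tested on simulated data whose spread was set, not taken from these libraries. Simulated log2 changes of 1 were recovered in 78.2% of cases between classes, 45.1% between genotypes and 15.0% for the interaction. For log2 changes of 2 these were 100%, 80.5% and 76.3%. Genotype and interaction changes of this size could therefore be missed.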

Additional observations from a re-analysis of the deposited data

How the results depend on the processing

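Between shallow and deep barcodes 4949 genes were called, and the count stayed within 1.5 times of that without TMM scaling, with DESeq2, without a filter on low counts, without Malat1 and the ribosomal RNA locus, in barcodes with at least 3 microglia markers, at 1000 to 1500 UMIs, with deep barcodes of 4000 to 10000 UMIs, unthinned or asked for 500 genes after thinning, with the library left out of the fit (4810), and without each library in turn (3962 to 4470). It was 1868 at 1500 to 2000 UMIs, 1976 with a mitochondrial limit of 5% and 2902 against barcodes of 2000 to 4000 UMIs. Without TMM scaling the median log2 fold change of all genes was 0.14 in place of 0.01. Upper ends of UMI windows are not included.

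Between genotypes in shallow barcodes, 2 genes were called with no filter on low counts, 1 with DESeq2, 2 at 1500 to 2000 UMIs, 2 with the replicate block, and 0 to 28 without 1 library. The labels do not say whether equal replicate numbers pair the libraries. The replicate differences of the 2 groups had r = -0.05 over 5418 genes and -0.13 over the 1237 with an average log2 CPM of at least 7. These values cannot settle a pairing, since many genes had few counts in the shallow sums. For the interaction, 1 gene was called with a mitochondrial limit of 5%, 2 with deep barcodes of 4000 to 10000 UMIs, 2 with 2000 to 4000, and 0 to 2 without 1 library. The difference in the share of shallow barcodes ranged from -3.05 to -1.66 points without 1 library.

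The shallow minus deep difference in nuclear noncoding RNA was 7.27 points of UMIs, of which Malat1 made up 6.83. It was 8.52 at 1000 to 1500 UMIs, 5.13 at 1500 to 2000, 4.95 with a mitochondrial limit of 5%, and 6.96 and 6.43 against deep barcodes of 4000 to 10000 and 2000 to 4000. In the first 4 of these settings the ribosomal difference was -7.55, -3.77, -3.07 and -5.31 points, against -6.18. The actin and cytosolic difference was -1.99, -1.22, -1.21, -1.59 and -1.47 in the 5 settings, against -1.71. The ER difference was -7.84, -5.05 and -4.75 in the first 3, against -6.81. Without 1 library these differences ran from 7.19 to 7.34, -6.30 to -5.97, -1.74 to -1.68 and -7.04 to -6.45. The share of barcodes with microglia markers differed by -1.96 points with 4 markers, 0.058 at 1000 to 1500 UMIs, 0.34 against 2000 to 4000 UMIs, and -0.665 to 0.130 without 1 library.

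Of the named genes between classes, 1350 of 1386 values kept direction and side of the threshold, 26 lost the call, 2 gained it and 8 changed sign. The sign changes were in genes not called: Pvt1 (-0.21 at 1500 to 2000 UMIs, -0.25 with a mitochondrial limit of 5%), Peg13 (0.043 without TMM scaling, -0.22 to 0.11 without 1 library, 0.18 at 1000 to 1500 UMIs) and AY036118 (0.061 without TMM scaling, -0.14 to 0.032 without 1 library, 0.035 unthinned). Of 281 values between genotypes and for the interaction 266 were unchanged in this sense, 14 gained the call and 1 changed sign, the interaction of Cst7 (-0.053 at 1000 to 1500 UMIs). The causes were not tested. Shallow sums of 267562 to 472446 UMIs limit genes near 10 CPM to a few counts per library.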

Other observations

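Barcodes of at least 1000 and under 2000 UMIs that were over the mitochondrial limit of 10%, 692 in all, had a Malat1 share like that of the shallow class and lower shares of ribosomal protein and actin and other cytosolic mRNAs, with ranges over libraries that did not overlap. The ranges of ER-translated mRNAs overlapped, but within each library their share was lower than in shallow barcodes. It was 5.29% and 2.75% in the cKO and 5.49% and 5.08% in the Control libraries, against 6.89%, 4.60%, 6.54% and 6.43%. Malat1 took 9.96% ± 0.54 of the UMIs of barcodes over the limit, against 9.80% ± 0.18 in shallow barcodes (SD, n = 4 libraries). Ribosomal protein mRNAs took 1.76% ± 0.45, against 4.59% ± 0.87 in all shallow barcodes and 1.43% ± 0.33 in those with Malat1 at 6% or more. Actin and other cytosolic mRNAs took 1.21% ± 0.03, against 1.82% ± 0.09 and 1.25% ± 0.05 in the same classes, and ER-translated microglial mRNAs 4.65% ± 1.28, against 6.12% ± 1.03 and 3.77% ± 1.06. Mitochondrially encoded RNA, by which these barcodes were set apart, took 15.9% ± 0.20 of their UMIs, against 5.15% ± 0.20.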
